A study of Mus musculus with 6 samples.

Results

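The 10 genes described here encode antiviral effectors and restriction factors, proteins that cells make to block steps of a viral life cycle. They were the fixed list Mx1, Oasl1, Oasl2, Rsad2, Ifit1, Ifit3, Bst2, Eif2ak2, Samhd1 and Apobec3, and were found by Ensembl identifier among the 41388 genes of the RNA-Seq table. All 10 were present in the table and 5 had enough signal for a test between genotypes. The cultures were T cells from spleen and lymph nodes of C57BL/6 mice aged 8 to 12 weeks, in a group of 3 WT and a group of 3 Irf1-/- samples. In both groups the T cells were activated through CD3 and CD28 and kept for 2 days with IL-2, IL-4 and TGF-β, the conditions for T helper cells that make IL-9 (Th9 cells), and with IFN-γ at 5 ng per ml. The Irf1-/- animals lack the transcription factor IRF1 in every cell. Cultures without IFN-γ were not analysed here, so the response to IFN-γ itself was not measured. The study describes the samples of a group as independent biological samples, while the labels number them and do not tie a number to an animal.

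Interferons act in 2 broad ways on such genes. Type I interferons act through a complex that holds STAT2 and IRF9 and binds the interferon-stimulated response element (ISRE), whereas IFN-γ acts through the γ-activated sequence (GAS). IRF1 is itself induced by IFN-γ, binds ISRE-like letters and is known to carry part of the IFN-γ response. The antiviral effectors are best known as type I interferon targets, but many of them also respond to IFN-γ, and several have a basal level in lymphocytes.

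Between 5639788 and 13348230 reads per library fell on genes, and a gene with no more than 3 reads in a library, a normalized count of 1.84 to 4.16 depending on the library, was not told apart from an absent one. Irf1 had 2968, 2907 and 2660 normalized counts in WT and 1780, 1729 and 1476 in Irf1-/- samples, so that reads on the locus persisted at 58.4% of the WT mean (log2 fold change −0.78, limma adjusted p = 7.3e-05). The T cell markers were present in all libraries, with Cd4 between 3555 and 4030 normalized counts, and 1 of 8 markers (Cd3e) was lower and 1 (Il9) higher in Irf1-/- samples. Markers of other cells were low, except for myeloid markers in Irf1-/- replicate 2. The summed markers of CD8 T cells reached 41.2, those of B cells 37.4, those of dendritic cells 8.36 and those of NK cells 5.97 normalized counts, with every dendritic cell marker at or under 3 reads in every library and 3 of 4 NK cell markers at 0 throughout. The 6 myeloid markers summed to 1029 in Irf1-/- replicate 2 and to between 41.5 and 232 in the other 5 libraries. Of these markers 4 were tested between genotypes and did not pass, and 2 were under the filter for the test. The 4 Y-linked transcripts summed to 2301 and 2306 in WT replicates 1 and 2 and to between 0 and 11.1 in the other 4 libraries, so that they were unevenly spread over the genotypes, although the study's methods describe the mice as matched for sex. Values without the libraries that hold them, or with these transcripts as a covariate, are given for the effectors they change.

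The effectors fell into 3 tiers of abundance. Per kilobase of exon, WT cultures contained most of Bst2, with 954 normalized counts per kb, followed by Apobec3 with 203, Samhd1 with 132 and Eif2ak2 with 70.9. Ifit1 stood well below these with 10.3 normalized counts per kb. The remaining 5 were near the limit of detection, namely Oasl1 with 3.53, Ifit3 with 2.79, Oasl2 with 0.452, Mx1 with 0.106 and Rsad2 with 0.0960 normalized counts per kb. Bst2 exceeded 97.4% of the tested genes on this scale, whereas Eif2ak2 lay near the middle, above 52.2%, and Ifit1 exceeded 14.6%. The WT ranges of neighbours in this order overlapped for Oasl1 and Ifit3, for Oasl2 and Mx1 and for Mx1 and Rsad2, and did not overlap for the other neighbours. The order was the same when the length of the longest coding transcript was used instead of all exons. The distances changed, with 1088 normalized counts per kb for Bst2, 694 for Apobec3 and 307 for Samhd1.

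**Figure D1:**
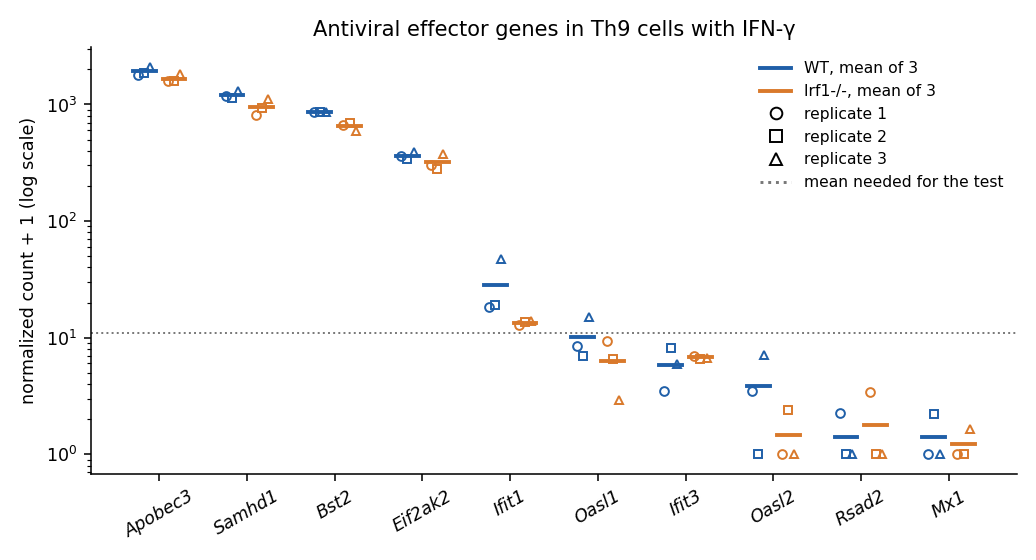
Normalized counts plus 1 of the 10 antiviral effector genes in each library, on a log axis, with points for the 3 WT and 3 Irf1-/- cultures and bars for the group means, and a dotted line at the mean of 10 needed for the test. Before the addition of 1, Bst2, Apobec3, Samhd1 and Eif2ak2 lie above 280 in every library, Ifit1 lies between 11.9 and 46.7, and the other 5 genes stay at or under 14.1.

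Bst2 (ENSMUSG00000046718, GRCm38 chr8:71534255-71537456, minus strand) encodes tetherin, a membrane protein that holds budding enveloped viruses at the cell surface. Its normalized counts were 861, 866 and 857.5 in WT replicates 1 to 3 and 672, 698 and 593 in Irf1-/- replicates 1 to 3. Every Irf1-/- value lay below every WT value, and the WT values were almost identical. The mean fell from 861 ± 4.05 to 654 ± 54.5 (SD, n = 3 each). The log2 fold change was −0.40 (SE 0.0707, 95% interval −0.56 to −0.24) with an adjusted p of 0.00284 by limma with Benjamini-Hochberg adjustment over the 11379 genes tested. Bst2 passed the threshold of 0.05. The library with the high myeloid marker sum held the highest of the Irf1-/- values, and without it the log2 fold change was −0.45 (limma adjusted p = 0.00608). The difference was of the same size, −0.39, in the 4 libraries without Y-linked transcripts, where 1 WT library was left and the limma adjusted p was 0.0717. In bulk samples, fewer cells that express a gene and less RNA per cell cannot be told apart.

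Samhd1 (ENSMUSG00000027639, chr2:157097533-157135265, minus strand) encodes an enzyme that breaks down the deoxynucleotides needed for reverse transcription. It had 1172, 1142 and 1301 normalized counts in WT and 811, 925 and 1111 in Irf1-/- samples. The groups did not overlap, but the highest Irf1-/- value lay just below the lowest WT value. Its mean fell from 1205 ± 84.7 to 949 ± 151 (SD, n = 3 each), with a log2 fold change of −0.35 (SE 0.102, 95% interval −0.58 to −0.13, limma adjusted p = 0.0297). This call was less firm than that of Bst2. It was lost with each WT library left out (limma adjusted p between 0.0557 and 0.0689), without Irf1-/- replicate 1 (log2 fold change −0.25, limma adjusted p = 0.109) and without Irf1-/- replicate 2 (−0.34, limma adjusted p = 0.0967). Without Irf1-/- replicate 3 the log2 fold change was −0.47 and passed (limma adjusted p = 0.00166). In the 4 libraries without Y-linked transcripts, with WT replicate 3 as the only WT library, it was −0.47.

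Apobec3 (ENSMUSG00000009585, chr15:79891659-79915906, plus strand) encodes a cytidine deaminase that enters retroviral particles and damages their genomes. It was the member with the most reads, 11714 over all libraries, with 1798, 1856 and 2106 normalized counts in WT and 1578, 1582 and 1815 in Irf1-/- samples. The third Irf1-/- value lay above the lowest WT value, so the groups overlapped. The means were 1920 ± 163 and 1659 ± 135 (SD, n = 3 each), and the log2 fold change of −0.21 (SE 0.0760, 95% interval −0.38 to −0.04) missed the threshold with a limma adjusted p of 0.0682. The log2 fold change was −0.28 and passed without Irf1-/- replicate 3 (limma adjusted p = 0.0159), and was between −0.26 and −0.14 and did not pass with any of the other 5 libraries left out. In the 4 libraries without Y-linked transcripts, with WT replicate 3 as the only WT library, the log2 fold change was −0.35. With these transcripts as a covariate it was −0.35 too, since that fit also compares WT replicate 3 alone with the Irf1-/- samples. Apobec3 shares 100 exon bases with Cbx7 on the opposite strand, a gene with a mean of 756 normalized counts in WT and 1003 in Irf1-/- samples, and reads from these bases cannot be told apart because the library kit does not mark strand.

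Eif2ak2 (ENSMUSG00000024079, chr17:78852564-78882573, minus strand) encodes the kinase PKR, which senses double-stranded RNA and halts translation. It had 361, 340.2 and 387 normalized counts in WT and 304, 280.1 and 374 in Irf1-/- samples. Again replicate 3 of Irf1-/- reached into the WT range. The log2 fold change was −0.19 (SE 0.108, 95% interval −0.43 to 0.05, limma adjusted p = 0.234), an interval that holds both no difference and a drop of the size seen for Bst2. Without Irf1-/- replicate 3 it was −0.31 and passed (limma adjusted p = 0.0321), and without Irf1-/- replicate 2 it was −0.10 (limma adjusted p = 0.582).

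Ifit1 (ENSMUSG00000034459, chr19:34640871-34650009, plus strand) encodes a protein that binds viral RNA with an incomplete cap and keeps it from the ribosome. It was covered by 14, 15 and 76 reads in WT and by 10, 9 and 20 reads in Irf1-/- samples, which corresponded to 17.5, 18.0 and 46.7 against 11.9, 12.5 and 12.8 normalized counts. All WT values were higher than all Irf1-/- values; WT replicate 3 stood far above the other two WT libraries. The log2 fold change of −0.93 was the largest among the tested effectors but had a wide error (SE 0.372, 95% interval −1.76 to −0.11) and did not pass (limma adjusted p = 0.0949). Without WT replicate 3 the log2 fold change was −0.49 (limma adjusted p = 0.334), and in the 4 libraries without Y-linked transcripts, with WT replicate 3 as the only WT library, it was −1.83 (limma adjusted p = 0.0243).

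The other 3 genes of the IFIT and OAS-like group were too low for the test. Oasl1 (ENSMUSG00000041827, chr5:114923240-114937915, plus strand) and Oasl2 (ENSMUSG00000029561, chr5:114896936-114912234, plus strand) encode relatives of the oligoadenylate synthetases, which sense double-stranded RNA. Oasl1 had 6, 5 and 23 reads in WT and 7, 4 and 3 reads in Irf1-/- samples. Its groups overlapped, with means of 9.21 ± 4.33 and 5.27 ± 3.23 normalized counts (SD, n = 3 each), and 23 of its 34 WT reads came from WT replicate 3. Oasl2 had 2, 0 and 10 reads in WT and 0, 1 and 0 in Irf1-/- samples, a ratio of the reads summed over each group, scaled by the summed size factors, of 0.0870 with an exact counting interval of 0.00203 to 0.588. That interval covers counting error only, and 10 of the 12 WT reads came from WT replicate 3. Ifit3 (ENSMUSG00000074896, chr19:34583531-34588731, plus strand), a partner protein of other IFITs, had 2, 6 and 8 reads in WT and 5, 4 and 9 in Irf1-/- samples. Its groups overlapped, and its ratio of scaled summed reads, 1.17, had a counting interval of 0.565 to 2.46. Ifit3 has a near-identical neighbour, Ifit3b, and how the counting treated reads that match both was not stated.

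Mx1 and Rsad2 were practically silent. Mx1 (ENSMUSG00000000386, chr16:97447035-97462907, minus strand) encodes a dynamin-like GTPase that blocks influenza virus in the nucleus, and the allele of C57BL/6 and most other laboratory strains encodes no working protein. It had 1 read in WT replicate 2, 1 read in Irf1-/- replicate 3 and none in the other 4 libraries, 2 of 51000238 reads in all. Rsad2 (ENSMUSG00000020641, chr12:26442746-26456452, minus strand) encodes viperin, an enzyme that makes a chain-terminating nucleotide. It had 1 read in WT replicate 1, 2 reads in Irf1-/- replicate 1 and none elsewhere. Both genes were at or under 3 reads in every library, so no fold change is given. A difference between genotypes was not detectable at this depth.

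Of the 5 effectors tested, 2 were called lower in Irf1-/- cultures and 0 higher. The background was 12.4% of the 11379 tested genes called lower and 11.4% called higher. At an unadjusted limma p under 0.05, 4 of the 5 were lower and 0 higher, beside 18.9% and 17.8% of all tested genes. On the recovered reads edgeR and DESeq2 called Bst2 and Samhd1 lower and 0 effectors higher, beside 12.5% lower and 11.1% higher of all tested genes for edgeR and 9.32% and 8.28% for DESeq2. With a library left out the lower calls numbered 1, Bst2, in 5 cases and 4 in the sixth, without Irf1-/- replicate 3. The groups did not overlap for 3 of the 5 tested effectors, where 40.5% of all tested genes had groups that did not overlap. The exact permutation test of 3 against 3 samples, two-sided, cannot go below p = 0.1, and Bst2, Samhd1 and Ifit1 reached this smallest value. The median log2 fold change of the 5 was −0.35, beside −0.00 over all tested genes. All 5 tested members passed the filter on a mean of at least 10 normalized counts with both group means above 10, and the 5 that did not pass are described above by their reads.

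**Figure D2:**
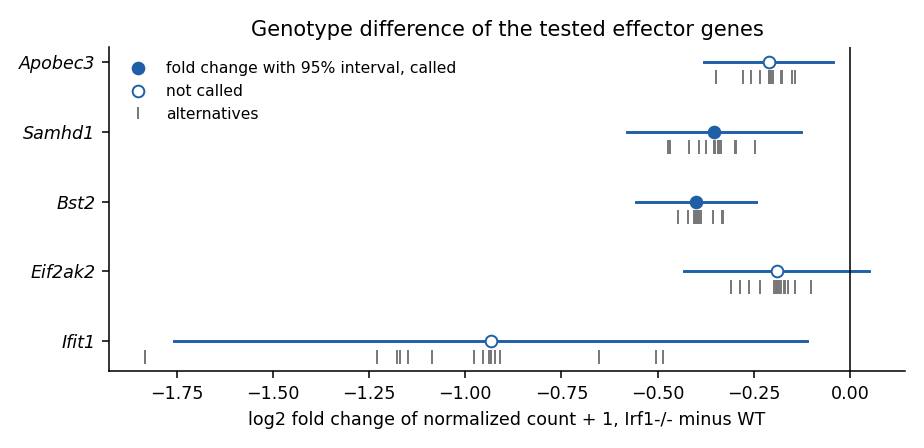
Log2 fold change (Irf1-/- minus WT) of the 5 tested effectors, with the value of the main test and its 95% interval and the values under the alternatives as grey ticks. All values lie below 0, with Bst2 and Samhd1 drawn as filled points because they pass the threshold, and the alternatives spread most for Ifit1, from −1.83 to −0.49.

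The related antiviral genes placed these values in their families. Of 29 genes on this list, which like the members was chosen with earlier results of these data known, 28 were matched and 15 tested, of which 5 were called lower and 0 higher, with 6 lower and 2 higher at an unadjusted limma p under 0.05. The shares over all tested genes were 12.4% lower and 11.4% higher, and 18.9% and 17.8% at the unadjusted p. edgeR called 5 lower and 0 higher, and DESeq2 called 1 lower and 0 higher. The lower calls numbered 2 without WT replicate 1, without WT replicate 2 or without Irf1-/- replicate 1 and 3 without Irf1-/- replicate 2, and Zbp1 was called in each of these. Without WT replicate 3, the 2 genes that were higher at the unadjusted p, Zc3hav1 among them, were called higher. The median log2 fold change was −0.34. Zbp1, a sensor of Z-form nucleic acid, had 77.4, 96.2 and 118 normalized counts in WT and 28.7, 38.8 and 58.8 in Irf1-/- samples. The groups did not overlap, and the log2 fold change was −1.23 (SE 0.252, limma adjusted p = 0.00619). Oas3, a true oligoadenylate synthetase, fell from values between 16.8 and 25.0 to values between 9.71 and 10.7 (log2 fold change −0.99, limma adjusted p = 0.0310). Isg20, an exonuclease (−1.41, limma adjusted p = 0.0354), Cmpk2, a mitochondrial nucleotide kinase whose gene is the neighbour of Rsad2 (−1.17, limma adjusted p = 0.0421), and Ifi35 (−0.34, limma adjusted p = 0.0140) completed the 5. Isg20 and Cmpk2 passed the filter on a mean of 10 only through WT. Their means were 20.4 and 14.5 normalized counts in WT and 7.20 and 6.09 in Irf1-/- samples. Without the filter neither was called (limma adjusted p = 0.0512 and 0.0892). In the 4 libraries without Y-linked transcripts Zbp1 passed (−1.53, limma adjusted p = 0.0338), while Oas3 (−1.08), Isg20 (−0.79), Cmpk2 (−1.01) and Ifi35 (−0.36) did not. Cmpk2 was thus detected at 12.9 to 16.2 normalized counts in WT while Rsad2 next to it was not.

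Within the IFIT family, Ifit2 was the abundant member. It had 267, 252 and 393 normalized counts in WT and 230.4, 214 and 282 in Irf1-/- samples, with overlapping groups and a log2 fold change of −0.31 that did not pass (limma adjusted p = 0.197). In the 4 libraries without Y-linked transcripts the log2 fold change of Ifit2 was −0.71 and passed (limma adjusted p = 0.0341), with WT replicate 3 as the only WT library, and without WT replicate 3 it was −0.11 (limma adjusted p = 0.561). Among the OAS genes, Oas1b (log2 fold change −0.75, limma adjusted p = 0.0631) and Oas1c (−0.44, limma adjusted p = 0.143) had no overlap between groups but missed the threshold. Oas1b passed without WT replicate 3 (−0.90, limma adjusted p = 0.0347) or without Irf1-/- replicate 3 (−0.92, limma adjusted p = 0.0339), and was −0.50 without Irf1-/- replicate 2 and −0.44 in the 4 libraries without Y-linked transcripts. Mx2, the paralog of Mx1, had 3.74, 9.62 and 3.69 normalized counts in WT and 1.19, 0 and 0.639 in Irf1-/- samples and was below the filter for the test, and without that filter it was called lower (limma adjusted p = 0.0238). Isg15, a ubiquitin-like modifier that is among the strongest type I interferon targets, was also low, between 8.74 and 18.0 normalized counts, with overlapping groups (log2 fold change 0.29, limma adjusted p = 0.621). The double-stranded RNA editing enzyme Adar (−0.01, limma adjusted p = 0.939) and the zinc finger protein Zc3hav1 (0.18, limma adjusted p = 0.0816) were abundant and did not pass.

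The 12 measured genes of a list of 13 interferon-inducible GTPases, which act on intracellular bacteria and parasites as well as viruses, were all called lower, beside 12.4% of all tested genes. The median of their log2 fold changes was −2.59. The tested antiviral effectors had log2 fold changes between −0.93 and −0.19. The difference between these lists was not tested.

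**Figure D3:**
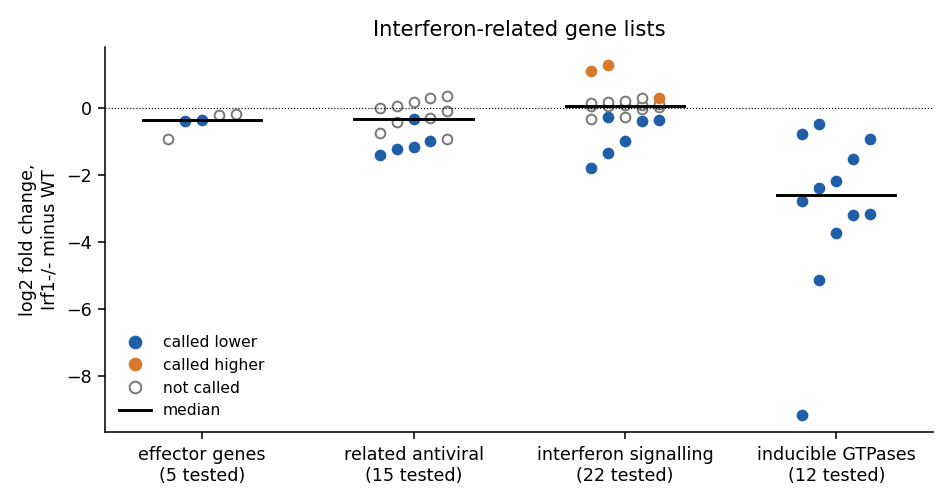
Log2 fold change (Irf1-/- minus WT) of each tested gene in the antiviral effectors, the related antiviral genes, the interferon signalling genes and the interferon-inducible GTPases, 1 point per gene, with the list medians. The medians are −0.35, −0.34, 0.05 and −2.59.

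Of the genes that carry the interferon signal, all 22 on the list were tested, of which 6 were called lower and 3 higher, beside 12.4% and 11.4% of all tested genes. Their median log2 fold change was 0.05. Stat2 and Irf9, whose products bind the ISRE, were not called. Stat2 had a log2 fold change of 0.28 (limma adjusted p = 0.0754) and Irf9 of 0.06 (limma adjusted p = 0.632). Usp18, which dampens the type I interferon receptor, had 66.1, 69.7 and 68.8 normalized counts in WT and 14.3, 22.2 and 21.7 in Irf1-/- samples (log2 fold change −1.79, limma adjusted p = 0.000301). The RNA sensor Ifih1 (−1.34, limma adjusted p = 0.000532) and the factor Irf2 (−0.99, limma adjusted p = 0.000315) also fell, and Irf8 and Tmem173, which encodes STING, fell by 0.35 and 0.40 on the log2 scale (limma adjusted p = 0.0178 and 0.00452). Irf7, the factor of the late type I response, rose from values between 7.21 and 7.49 to values between 13.9 and 19.2 (log2 fold change 1.09, limma adjusted p = 0.0297). It passed the filter only through the Irf1-/- group, with means of 7.36 normalized counts in WT and 17.0 in Irf1-/- samples. Irf7 was not called without the filter (limma adjusted p = 0.0783), with quantile normalization (limma adjusted p = 0.0662) or by DESeq2 (adjusted p = 0.152). Socs3, an inhibitor of cytokine receptors (1.28, limma adjusted p = 7.2e-05), and Irf3 (0.28, limma adjusted p = 0.0133) rose too. The call of Irf7 was lost with any library but Irf1-/- replicate 2 left out (limma adjusted p between 0.0514 and 0.0926), that of Irf3 without WT replicate 1 (limma adjusted p = 0.0605) or Irf1-/- replicate 2 (limma adjusted p = 0.0561), and that of Irf8 without WT replicate 1 (limma adjusted p = 0.0770) or WT replicate 2 (limma adjusted p = 0.0668). In the 4 libraries without Y-linked transcripts Usp18, Ifih1, Irf2 and Socs3 passed and Irf8, Tmem173, Irf7 and Irf3 did not. The receptor chains Ifngr1, Ifngr2, Ifnar1 and Ifnar2 were all present above 180 normalized counts in every library and did not pass in the main test. Ifngr2 was lower and passed without Irf1-/- replicate 3 (log2 fold change −0.34, limma adjusted p = 0.0284). Stat2 was higher and passed without Irf1-/- replicate 1 (0.38, limma adjusted p = 0.0366). Neither passed with any other library left out.

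The type I interferons themselves were near absent. Of the 21 interferon ligand genes listed, 20 were at or under 3 reads in every library and 17 at 0 in all of them. Only Ifng was tested. It had 22.5, 18.0 and 30.1 normalized counts in WT and 19.1, 9.71 and 29.4 in Irf1-/- samples, with overlapping groups and a log2 fold change of −0.36 (limma adjusted p = 0.530).

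The promoters of the effectors were searched for the letters of the interferon elements, because factors of the interferon response bind them. RefSeq promoters (GRCm38.p6) of 300 bases, 250 before to 50 after the start, were given for 9 of the 10 effectors, and Apobec3 had 2 starts. The ISRE letters GAAANNGAAA on either strand occurred in 3.44% of all 32851 promoters and in those of 6 of the 9 effectors, namely Bst2, Apobec3, Eif2ak2, Ifit1, Ifit3 and Rsad2. The GAS letters TTCNNNGAA occurred in 8.3% of all promoters and in those of Samhd1, Bst2 and Eif2ak2. The shorter letters AANNGAAA, which lie within every ISRE match, occurred in 23.9% of all promoters and in those of 7 effectors, the 6 named and Oasl1. Oasl2 had no match to any of the 3 in this window. A match describes letters and is not a measured binding site.

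The stretches around the matches are shown on the strand of the gene, 5′ to 3′, because they set effectors of the abundant, the low and the near-silent tier side by side. Capitals mark the ISRE letters, which appear as their reverse complement where the match lies on the opposite strand. The abundant members Bst2 (chr8:71537567-71537622, minus strand), Apobec3 (chr15:79892248-79892297, plus strand) and Eif2ak2 (chr17:78882525-78882574, minus strand) come first, then Ifit1 (chr19:34640765-34640833, plus strand), Ifit3 (chr19:34583353-34583436, plus strand) and Rsad2 (chr12:26456543-26456592, minus strand).
Bst2: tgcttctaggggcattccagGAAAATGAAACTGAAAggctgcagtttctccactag
Apobec3: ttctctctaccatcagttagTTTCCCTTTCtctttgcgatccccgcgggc
Eif2ak2: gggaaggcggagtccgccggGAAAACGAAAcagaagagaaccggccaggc
Ifit1: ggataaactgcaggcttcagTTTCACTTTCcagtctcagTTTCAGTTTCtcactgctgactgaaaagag
Ifit3: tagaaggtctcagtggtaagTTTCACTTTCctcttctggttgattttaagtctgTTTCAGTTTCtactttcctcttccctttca
Rsad2: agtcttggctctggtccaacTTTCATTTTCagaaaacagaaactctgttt

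Ifit1 and Ifit3 each held 2 separate ISRE matches and Bst2 held 2 that overlap. Ifit1 was low and Ifit3 and Rsad2 were near the limit of detection, whereas Bst2, Apobec3 and Eif2ak2 held matches of the same kind and were among the 4 abundant ones. Samhd1, the fourth abundant effector and the second one called lower, had no ISRE match. Its window held the GAS letters, shown in capitals (chr2:157135303-157135346, minus strand).
Samhd1: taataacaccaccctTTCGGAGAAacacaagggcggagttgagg

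**Figure D4:**
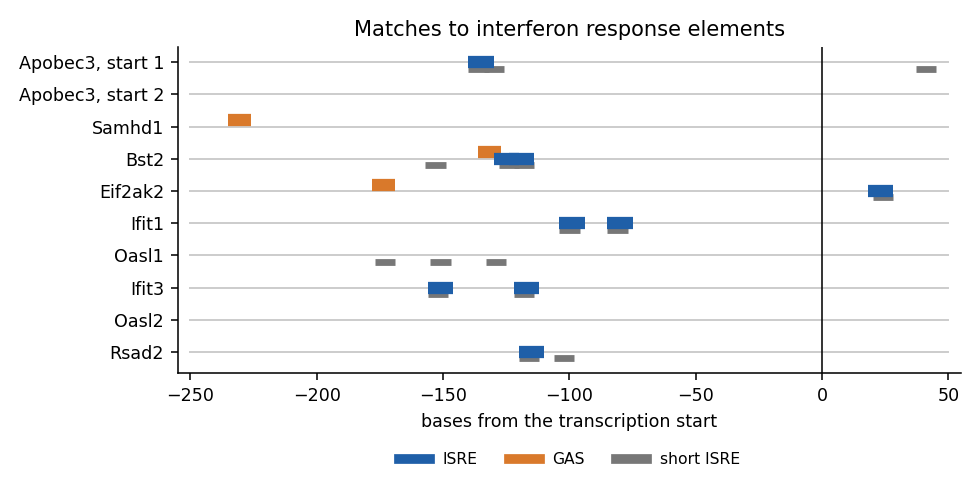
Positions of ISRE, short ISRE and GAS matches in the 300-base promoters of the effectors, in bases from the RefSeq start. The ISRE and GAS matches of Bst2 begin between 136 and 124 bases before the start, and the Eif2ak2 ISRE is the only ISRE match after the start, at 18 bases.

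For each tested effector, the 2 tested genes with the most similar centred log2 values over the 6 libraries were Xk and Cenps for Bst2 (root-mean-square difference 0.0142 and 0.0212), Pole and Ccdc127 for Apobec3 (0.0214 and 0.0230), Lrba and Tet3 for Eif2ak2 (0.0207 and 0.0229), Arhgap35 and Peli1 for Samhd1 (0.0268 and 0.0394) and Psme2b and Cd24a for Ifit1 (0.275 and 0.300). No other effector was among them.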

How the data were processed

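RNA from 3 WT and 3 Irf1-/- cultures was sequenced as poly(A)-selected, non-directional, single-end libraries. The authors aligned reads to GRCm38 with STAR 2.4.0b, counted them per Ensembl gene with featureCounts and normalized with DESeq2 1.12.3, per the labels and the study's methods. The deposited signal was the normalized count, a read count scaled by its library's size factor. Values in all 6 columns were whole multiples of what 1 read is worth (100% within 0.001), so reads were recovered. The strand setting and the treatment of reads that match several genes were not given in the sources used here.

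Identifiers were matched to symbols for 40254 of 41388 genes, of which 19805 were at 0 throughout. Positions and exon lengths came from GENCODE M21 on GRCm38 and promoters from RefSeq. Levels between genes were compared per kilobase of merged exons.

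Genotypes were compared in R 4.3.3 with limma 3.58.1 (eBayes with trend) on log2 of the normalized count plus 1, in genes with a mean of at least 10 over the 6 libraries, with Benjamini-Hochberg adjustment over all 11379 and a threshold of 0.05. Fold changes on this scale understate those of low genes. Count tests on the recovered reads by edgeR 4.0.16 and DESeq2 1.42.0 were alternatives. The scripts were tested on simulated data. Genes under the filter are given by reads, and intervals of their ratios cover counting error only. The named genes are the members, genes of the related, signalling and ligand lists, and for each tested member the 2 genes with the nearest profile. GTPases are given as counts and a median, and marker lists of other cells as sums. Cd4, Cd3e, Il9 and Cbx7 fall outside this rule and were named after their values were seen. The members and lists were chosen with earlier results of these data known. The lists' Shfl and Gbp6 were not matched and are not analysed here, and some genes of the lists are counted but not reported singly.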

Additional observations from a re-analysis of the deposited data

How the results depend on the processing

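No direction reversed for the 5 tested effectors or Irf1 under any of the alternatives, 18 for Ifit1, which fell under the stricter filter, and 19 for the others. Bst2 ranged from −0.45 to −0.33 and passed in 18, Samhd1 from −0.47 to −0.25 and passed in 11, Apobec3 from −0.35 to −0.14 and passed in 4, Eif2ak2 from −0.31 to −0.10 and passed in 2, and Ifit1 from −1.83 to −0.49 and passed in 3 (limma adjusted p from 0.0101 to 0.389). Of the effectors, 1 was called lower with quantile normalization and without the trend, and 4 in replicates 1 and 2 only. In the 4 libraries without Y-linked transcripts, and with these transcripts as a covariate, fold changes rest on WT replicate 3 alone against the Irf1-/- samples. Calls under these settings assume that 1 WT library varies like the others. With a library left out, 1 to 4 effectors were called lower, and 0 were called higher under all 19. The cause was not tested.

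Without the filter 4 related antiviral genes were called lower, Ifi35, Zbp1, Mx2 and Ch25h, and Cmpk2, Isg20 and Oas3 were not. The related genes called lower numbered 2 with a mean of at least 50, by construction over fewer genes, 1 with DESeq2, 2 with the Y-linked covariate, 2 in the libraries without Y-linked transcripts and 2 to 4 with a library left out. Those called higher numbered 1 with quantile normalization, 1 in replicates 1 and 2 only and 0 to 2 with a library left out.

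Same-numbered samples correlated by 0.092, 0.269 and 0.321 in their deviations, so the numbers were not taken as pairs, although every sample correlated best with its own number. Depth also followed the number. WT and Irf1-/- replicate 3 had 13348230 and 12423511 reads on genes, and the other libraries between 5639788 and 6611536. With the replicate block, 4 effectors were called lower (adding Apobec3, adjusted p = 0.00168, and Ifit1), 7 related genes lower (adding Ifit2 and Oas1b), 2 related genes higher, and 2116 genes lower and 1893 higher overall.

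Over all genes, 1406 lower and 1293 higher calls became 807 and 928 without the trend, 772 and 584 with the Y-linked covariate, 392 and 392 without Y-linked libraries, 829 and 808 without WT replicate 1, 826 and 799 without WT replicate 2 and 895 and 820 without Irf1-/- replicate 2, and 2085 and 1810 in replicates 1 and 2 only. Genes at or under 3 reads allow no statement on genotype.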

Other observations

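The highest value of 6 of the 10 effectors among the 6 libraries was in WT replicate 3, namely Apobec3, Samhd1, Eif2ak2, Ifit1, Oasl1 and Oasl2. Of the 5 tested effectors these were 4, and of all 11379 tested genes 19.2% had their highest value in that library. Ifit2, with 393 normalized counts, was also highest there. In contrast, Irf2 with 393 and Isg20 with 12.3 normalized counts were lowest there among the WT libraries. This was noticed after the values were seen and was not tested.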
